A study of Mus musculus with 2 samples.

Results

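The genes described here encode the MHC class I antigen presentation machinery in cells of the mouse fetal ovary, and they were found by gene symbol in both count matrices. They are H2-D1, H2-K1, B2m, Tap1, Tap2, Tapbp and Nlrc5, which make 7 of the 27998 genes measured. The set was chosen by measured values of these data, since the level of H2-D1 puts it among the leading genes of 1 cluster of germ cells. The levels of H2-D1 and its partners across germ cell groups are therefore given as a description.

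MHC class I molecules display peptides from inside the cell to cytotoxic T cells and natural killer cells. H2-D1 and H2-K1 encode the polymorphic heavy chains, and B2m encodes beta-2 microglobulin, the invariant light chain without which a heavy chain does not fold stably or reach the surface. Tap1 and Tap2 encode both subunits of the transporter that carries peptides into the endoplasmic reticulum, Tapbp encodes tapasin, which bridges the transporter and the empty class I molecule, and Nlrc5 encodes the transactivator of class I promoters. Interferon raises this set of genes in many cell types.

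Ovaries were taken from female embryos at E15.5 of gestation, dissociated, and sorted for Pou5f1-GFP, a transgene that marks germ cells. Germ and somatic cells were mixed at 60 to 40 and captured with a droplet 3′ kit that counts transcripts by unique molecular identifiers (UMIs). The KO library pooled 2 embryos with a homozygous deletion of the glucocorticoid receptor (GR), encoded by Nr3c1, and the WT library pooled 4 wild-type embryos. The comparison asks whether the loss of GR changes transcripts of fetal germ cells. Per the labels, both libraries come from Tg(Pou5f1-EGFP)2Mnn Nr3c1tm1.1Jda mice, and per the study's methods the null allele lacks exon 3 and was made with the ubiquitous Cre of Tmem163Tg(ACTB-cre)2Mrt, so the deletion is present in somatic cells too. Per the same methods, KO embryos came from crosses between parents heterozygous for the deletion, and ovaries were pooled after the embryos were genotyped. An inbred strain is not given in the sources used here, and class I genes differ between strains. Each genotype is 1 library, so a difference between genotypes, between pools of embryos, between strain backgrounds and between capture runs cannot be told apart, and no test over samples can be made.

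The study's limits kept 15502 of 17829 barcodes in KO and 9045 of 11430 in WT, with median depths of 10194 and 15685 UMIs per cell, and 27 kept barcodes occur in both libraries. Clusters were named from marker lists. This gave 10221 and 6808 germ-like cells in KO and WT, with all 8 germ markers, among them Ddx4 and Dazl, detected in the germ clusters. Somatic cells fell into an immune-like, a granulosa-like, an endothelia-like, a theca-like, an erythroid-like, an epithelia-like and a perivascular-like class, and a small class led by Lypd1 and Pax8 was left unnamed. Nr3c1 stood at 11.6 CPM in KO and 71.8 CPM in WT germ-like cells (CPM, counts per 1000000 UMIs summed over the class), and reads outside the deleted exon still count for the gene. In each somatic class, the level of each of the 8 germ markers was set against its level in germ-like cells of the same library. The median share over the markers ran from 1.76% to 53.3% between classes and is given below as germ carry-over. Single markers spread around it, from 16.9% to 25.5% in KO theca-like cells. Free RNA and doublets can both give this signal. Intervals in brackets are 95% counting intervals (exact Poisson for a level, conditional binomial for a ratio), and they do not cover differences between embryos or captures.

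The promoters are shown first, because H2-D1, H2-K1 and B2m share elements there that are known binding sites of the regulators counted further on. Each sequence is the 250 bases before the start annotated by RefSeq (GRCm38.p6), read 5′ to 3′ on the strand of the gene, with H2-D1 at chr17:35262844-35263093 (plus strand), H2-K1 at chr17:34000348-34000597 (minus strand) and B2m at chr2:122147437-122147686 (plus strand). Capitals mark matches, on either strand, of GGATTCCC (a kappaB core), TTTCNNTT (a pair of interferon response half-sites), TGACG (the core of the X2 box, bound by CREB and ATF factors) and CCAAT (the box bound by NF-Y), which reads ATTGG on the other strand.
H2-D1: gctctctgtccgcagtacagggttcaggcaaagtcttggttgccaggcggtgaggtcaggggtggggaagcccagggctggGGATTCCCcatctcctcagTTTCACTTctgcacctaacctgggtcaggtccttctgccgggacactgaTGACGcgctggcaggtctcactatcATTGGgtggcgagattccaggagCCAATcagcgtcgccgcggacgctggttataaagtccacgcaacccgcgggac
H2-K1: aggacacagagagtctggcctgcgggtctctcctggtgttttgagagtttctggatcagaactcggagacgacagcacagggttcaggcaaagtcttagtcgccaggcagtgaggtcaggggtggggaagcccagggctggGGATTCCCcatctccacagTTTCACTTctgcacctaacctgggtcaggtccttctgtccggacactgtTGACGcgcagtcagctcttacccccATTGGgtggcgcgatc
B2m: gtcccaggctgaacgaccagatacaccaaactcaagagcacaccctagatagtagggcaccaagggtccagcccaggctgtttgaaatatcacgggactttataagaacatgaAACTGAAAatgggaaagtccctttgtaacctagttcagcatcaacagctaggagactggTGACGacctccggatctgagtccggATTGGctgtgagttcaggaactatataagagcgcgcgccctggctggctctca
In all 3 promoters TGACG begins 25 bases before the ATTGG that follows it, and 18 of 32851 promoters of the same length (0.0548%) hold this spacing. The distance was read from these 3 promoters, which are among the 18, so its rarity is a description. The heavy chain promoters also share a 68-base distance from GGATTCCC to TGACG, and they are 87.4% identical over 190 aligned bases. The B2m promoter holds no GGATTCCC, but other forms of a kappaB site were not searched for. Among all promoters, GGATTCCC occurred in 0.834%, TTTCNNTT in 21.3%, TGACG in 17.8% and CCAAT in 33.8%, while 5 promoters (0.0152%) held every one of the 4, including those of H2-D1 and H2-K1. The promoter of Tap1 held TGACG and CCAAT, and that of Tapbp held CCAAT alone. A match is a description of the letters, not of a bound site.

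By the GENCODE M21 annotation of GRCm38, 5 of the 7 genes lie together in the MHC on chromosome 17. They are Tapbp at 33915899 to 33929292, H2-K1 at 33996017 to 34000347, Tap1 at 34187553 to 34197225, Tap2 at 34203527 to 34216321 and H2-D1 at 35262730 to 35267499, so that 1262.4 kb separate the heavy chain genes. B2m lies on chromosome 2 at 122147686 to 122153083 and Nlrc5 on chromosome 8 at 94434356 to 94527272. All are protein-coding, and the counts are per gene, with no split into exons, introns or UTRs.

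Heavy chain transcripts were high in germ-like cells, whereas the transcripts of every other member were scarce there. H2-D1 stood at 516 CPM [512, 520] in KO and 567 CPM [563, 571] in WT germ-like cells. H2-K1 stood at 487 CPM [483, 491] and 483 CPM [479, 487]. B2m, the partner of both, stood at 17.8 CPM [17.1, 18.6] in KO and 19.4 CPM [18.6, 20.2] in WT. In each library germ-like cells ranked first of 9 classes for H2-D1, and for B2m they ranked 8th in KO and last in WT, without separating from erythroid-like cells by their intervals. The peptide loading members were lower still. Tapbp, the tapasin gene, stood at 2.14 CPM in KO and 2.19 CPM in WT germ-like cells and was lowest there of all 9 classes in both libraries, without separating from erythroid-like or perivascular-like cells by its intervals. Tap1 stood at 0.705 CPM (86 UMIs) in KO and 0.736 CPM (89 UMIs) in WT germ-like cells. Tap2 gave 30 and 18 UMIs and the transactivator gene Nlrc5 8 and 4 UMIs, over 10221 KO and 6808 WT germ-like cells.

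In the somatic classes other than erythroid-like cells, B2m was higher and the heavy chains lower than in germ-like cells. In granulosa-like cells, the Fst- and Wnt6-positive supporting cells, B2m stood at 94.3 CPM in KO and 106 CPM in WT, H2-D1 at 101 and 70.8 CPM, and Tapbp at 33.7 and 34.4 CPM. Immune-like cells had the highest B2m of all classes, at 563 CPM [501, 630] in KO (50 cells) and 594 CPM [523, 672] in WT (31 cells), beside H2-D1 at 296 and 338 CPM. Endothelia-like cells followed for B2m, with 164 and 264 CPM over 136 and 30 cells. Tap1 was detected at 20.6 CPM in KO immune-like cells (11 UMIs) and at 4.88 CPM in KO granulosa-like cells (92 UMIs). Erythroid-like cells held 302 and 304 CPM of H2-D1 in KO and WT, and they also held the most germ carry-over, at 53.3% and 37.2%. Perivascular-like cells had the lowest H2-D1, at 57.9 CPM [39.3, 82.2] in KO (31 UMIs) and 12.6 CPM in WT (3 UMIs), and the KO interval overlaps those of the unnamed and epithelia-like classes.

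**Figure D1:**
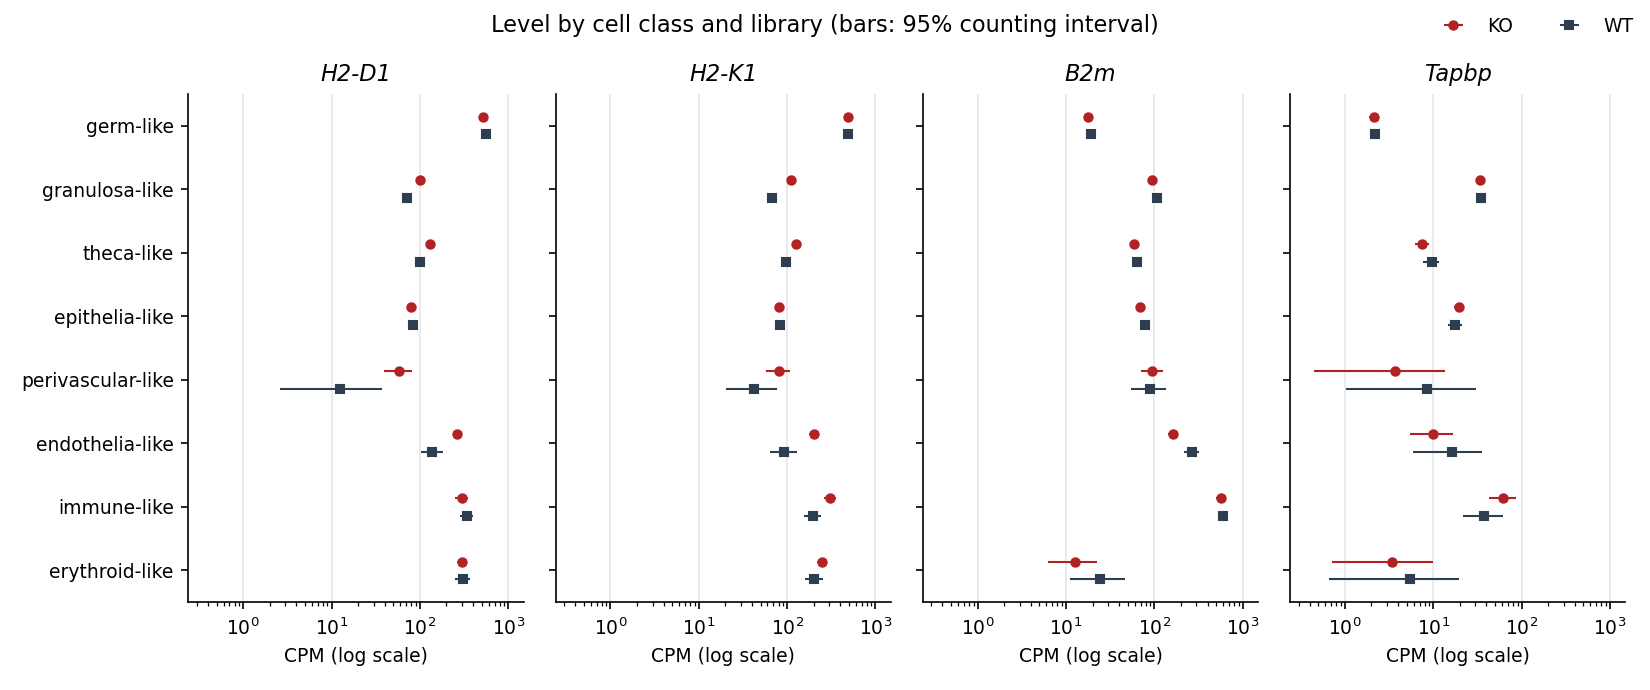
Levels of H2-D1, H2-K1, B2m and Tapbp (CPM, log scale) in each named cell class, with KO as circles and WT as squares and bars for 95% counting intervals. Germ-like cells lie at 487 to 516 CPM in KO and 483 to 567 CPM in WT for both heavy chains, above every somatic class, and at 17.8 and 19.4 CPM for B2m, below the main somatic classes.

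Set against granulosa-like cells of the same library, the members split by role. H2-D1 was higher in germ-like cells by 2.36 [2.29, 2.42] on the log2 scale in KO and 3.00 [2.90, 3.10] in WT, and H2-K1 by 2.15 and 2.84. B2m was lower, at -2.40 [-2.50, -2.31] and -2.46 [-2.56, -2.36]. Tap1 was at -2.79 and -2.47, and Tapbp at -3.98 and -3.97. Of the 5 members with at least 100 UMIs in this comparison, 2 were thus at least 1.5-fold higher and 3 at least 1.5-fold lower in germ-like cells of each library. Among all genes measured as well, 36.2% were higher and 36.4% lower by that fold in KO, and 38.7% and 35.5% in WT, so counts of this size are common between these cell types. Against theca-like and epithelia-like cells H2-D1 was higher by 2.00 to 2.75 on the log2 scale, and B2m lay between -2.01 and -1.71. Without cells called doublets by Scrublet, H2-D1 was higher by 3.43 in KO and 3.49 in WT than in theca-like cells, and by 3.76 and 3.48 than in epithelia-like cells.

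Part of the heavy chain signal in somatic classes rose with the signal of germ cell markers. In granulosa-like cells H2-D1 stood at 19.5% of its germ level in KO and 12.5% in WT, where germ carry-over was 16.4% and 9.80%. For B2m the corresponding values were 529% and 549% of the germ level. Cells called doublets by Scrublet made 11.3% of KO and 3.95% of WT granulosa-like cells and held 77.8% [75.9, 79.7] and 45.5% [42.1, 49.0] of their H2-D1 UMIs, but 11.8% and 4.40% of their B2m UMIs. Without those cells H2-D1 in granulosa-like cells was 28.6 CPM in KO and 41.9 CPM in WT, and B2m was 107 and 110 CPM. The difference of H2-D1 between germ-like and granulosa-like cells then became 4.18 in KO and 3.76 in WT on the log2 scale.

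Because 3′ UMIs count transcript ends and not fragments, the number of heavy chain UMIs (H2-D1 plus H2-K1) per B2m UMI can be compared between cell types. It was 56.3 [53.9, 58.7] in KO and 54.2 [52.1, 56.5] in WT germ-like cells. In granulosa-like cells it was 2.23 [2.11, 2.36] and 1.30 [1.21, 1.40], in theca-like cells 4.37 and 3.06, and in epithelia-like cells 2.36 and 2.15. These somatic ratios fell without Scrublet doublets, to 0.720 [0.666, 0.778] and 0.795 [0.729, 0.867] in granulosa-like, 1.53 and 1.60 in theca-like and 1.13 and 1.31 in epithelia-like cells, while those of germ-like cells were 57.2 and 55.3. Erythroid-like cells, which held the most germ carry-over, had ratios of 43.7 [24.2, 88.2] in KO and 20.7 [10.7, 45.9] in WT, on 11 and 9 B2m UMIs. In immune-like cells of KO 320 heavy chain UMIs stood beside 300 of B2m, and in those of WT 226 beside 251. Light and heavy chain transcripts were thus near balance in immune-like cells, and heavy chain transcripts far outnumbered B2m in germ-like cells of both genotypes. Among the named germ stages the ratio was 29.4 and 25.4 in premeiotic-like, 40.5 and 31.5 in meiotic entry-like, and 70.5 and 70.0 in recombination-like cells of KO and WT.

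H2-D1 was widespread among germ-like cells, and B2m was not. At least 1 UMI of H2-D1 was found in 92.8% of KO and 96.0% of WT germ-like cells (median depths of 11322 and 17114 UMIs). After each cell was thinned to 3000 UMIs the shares were 69.7% and 70.2%. In granulosa-like cells the thinned share of H2-D1 was 13.1% and 12.1%, at unthinned shares of 26.3% and 30.7% and median depths of 8502 and 12618 UMIs. These granulosa-like shares include germ carry-over, and how much of them is the cells' own expression was not tested. For B2m the thinned share was 4.83% and 5.45% in germ-like cells against 24.3% and 29.5% in granulosa-like cells, with unthinned shares of 18.0% and 26.7% against 54.6% and 67.4%. The H2-D1 signal was not carried by a few cells, since the top 1% of cells held 3.68% of its UMIs in KO and 3.49% in WT recombination-like cells, with medians of 7 and 11 UMIs per cell.

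Germ-like cells were clustered again without the MHC genes, and 3 stages were named from their markers. They were premeiotic-like cells (Sox2, Utf1), meiotic entry-like cells (Stra8) and recombination-like cells (Prdm9, Dmc1 and Meiob). Stra8 is the gatekeeper of meiosis, while Prdm9, Dmc1 and Meiob act in meiotic recombination. The premeiotic-like cluster led by Hist1h1b also had Rec8 and Msx1, of the meiotic entry list, among its leading genes. The mean log2 fold of that list over other germ cells was 1.39 in this cluster and 0.50 in meiotic entry-like cells. A further 4 groups did not meet the naming rule and are called by a leading gene, the Gm8730, Nlrc3, Kctd14 and Sohlh1 groups. Sohlh1 and Lhx8, transcription factors of oocyte growth, marked the last of these. The Kctd14 group was led by genes of granulosa cells (Fst, Kitl, Wnt6), and 58.7% of its KO and 37.2% of its WT cells were Scrublet doublets. The Nlrc3 group differed in depth between the libraries, with medians of 5045 UMIs in KO and 31599 in WT.

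The heavy chain transcripts were highest in recombination-like cells and lowest in the Sohlh1 group. H2-D1 stood at 268 CPM [259, 278] in premeiotic-like, 536 CPM [525, 547] in meiotic entry-like and 647 CPM [641, 654] in recombination-like cells of KO. In WT the same stages stood at 317 CPM [305, 329], 625 CPM [608, 642] and 738 CPM [730, 745]. In the Sohlh1 group H2-D1 was at 194 CPM [185, 203] in KO and 199 CPM [193, 205] in WT. Recombination-like cells thus exceeded the Sohlh1 group by 1.74 [1.67, 1.81] in KO and 1.89 [1.84, 1.93] in WT on the log2 scale. The Gm8730 group was close to recombination-like cells in WT, at 704 CPM, and lower in KO, at 509 CPM. The intervals of neighbouring groups in the order of H2-D1 did not overlap in either library.

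H2-K1 kept a flatter profile of the same shape. It rose from 313 CPM in premeiotic-like to 586 CPM in recombination-like cells of KO and from 322 to 596 CPM in WT, and was 222 and 236 CPM in the Sohlh1 group. In WT its recombination-like and Gm8730 levels (596 and 590 CPM) could not be separated by their intervals, nor could its meiotic entry-like and Nlrc3 levels (464 and 454 CPM). B2m followed another order. It stood at 19.7 CPM in premeiotic-like, 25.7 CPM in meiotic entry-like and 17.5 CPM in recombination-like cells of KO, and at 25.2, 34.6 and 19.0 CPM in WT. The highest B2m, at 35.1 and 36.8 CPM, was in the Kctd14 group, which also held the granulosa markers at 876 and 884 CPM, against 22.5 to 38.7 CPM in the other germ groups. Of 4 members with at least 100 UMIs, 3 were at least 1.5-fold higher in recombination-like cells than in the Sohlh1 group in each library, where 14.0% of all genes were so in KO and 12.4% in WT. These were H2-D1, H2-K1 and B2m. The choice of the set used the level of H2-D1 among germ cells, so this count is only a description. The minimum is taken over the sum of both sides. In KO, B2m met it through recombination-like cells, with 942 UMIs there and 81 in the Sohlh1 group.

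**Figure D2:**
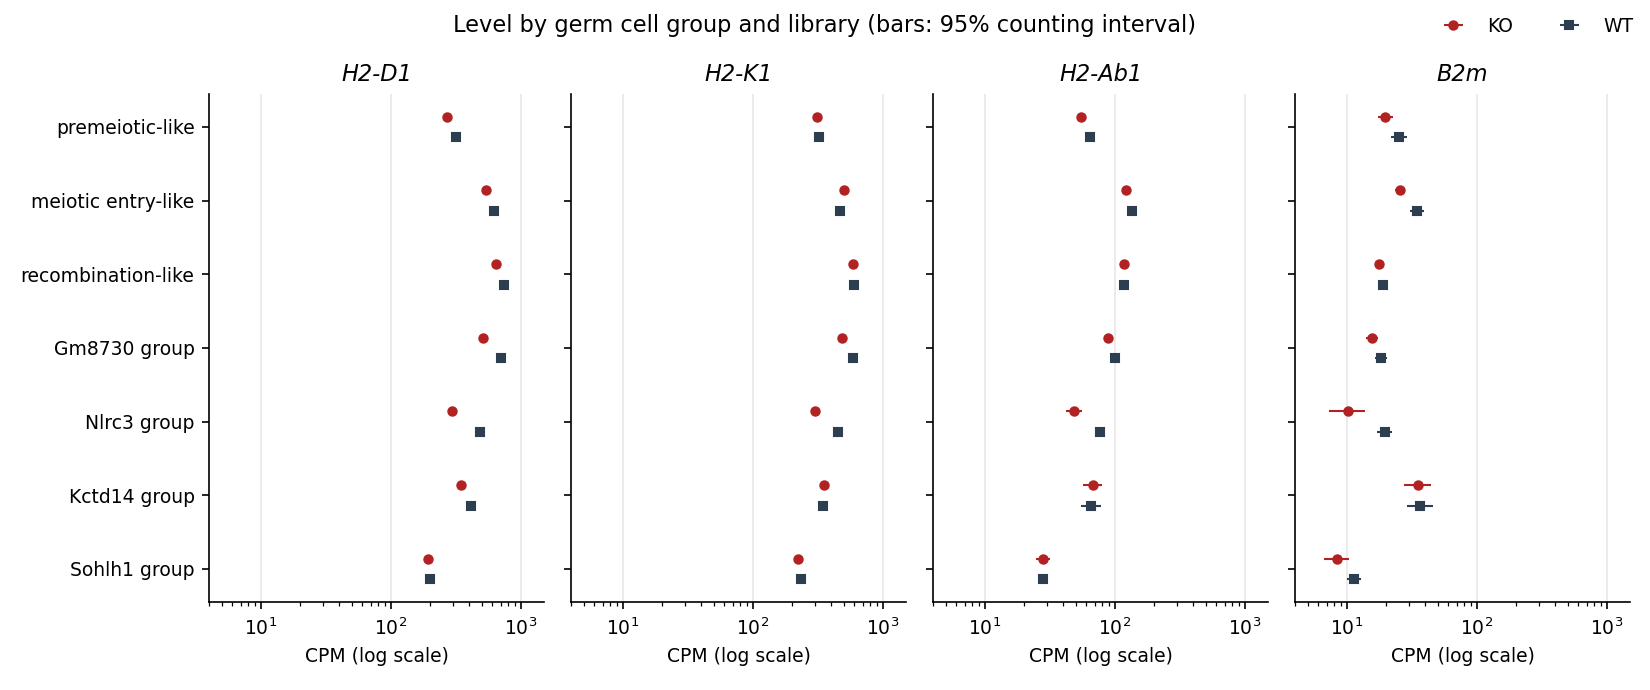
Levels of H2-D1, H2-K1, the class II gene H2-Ab1 and B2m (CPM, log scale) in the 7 germ cell groups, with KO as circles and WT as squares and bars for 95% counting intervals. H2-D1 rises from 268 and 317 CPM in premeiotic-like to 647 and 738 CPM in recombination-like cells and falls to 194 and 199 CPM in the Sohlh1 group, while B2m stays at or below 36.8 CPM throughout.

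Finer clusters showed where within each stage the heavy chains peaked. Recombination-like cells joined 2 clusters, and the one led by Kcnq1ot1, with Prdm9 at 392 CPM in KO and 353 CPM in WT, held H2-D1 at 805 CPM [793, 817] and 973 CPM [959, 988]. The other, led by Nrg2 and with Prdm9 at 224 and 208 CPM, held H2-D1 at 526 and 606 CPM. Premeiotic-like cells likewise joined a cluster led by the S-phase histone gene Hist1h1b, with H2-D1 at 294 and 335 CPM, and a cluster led by Phlda2, with the pluripotency gene Pou5f1 among its markers and H2-D1 at 206 and 278 CPM. Among germ clusters of at least 100 cells in this clustering, that led by Kcnq1ot1 had the highest H2-D1 in either library. At resolution 0.8, H2-D1 was among the leading genes of a recombination-like cluster led by Nacad, so where it peaks may depend on the clustering.

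Between genotypes, no member with at least 100 UMIs changed by 1.5-fold in germ-like cells. On the log2 scale, KO over WT was -0.14 [-0.15, -0.12] for H2-D1, 0.011 [-0.0059, 0.027] for H2-K1, -0.12 [-0.21, -0.036] for B2m, -0.062 [-0.51, 0.38] for Tap1 and -0.034 [-0.29, 0.22] for Tapbp. Thus 0 of the 5 members with at least 100 UMIs passed 1.5-fold, where 5.29% of 13826 genes did. None passed the study's own limit of 0.25 on the natural log scale either, where 0.174% of genes did. That scale adds a constant before the log. At the low levels of B2m, Tap1 and Tapbp even a full loss in KO would stay under the limit, so it could not show their fall. Tap2 (30 against 18 UMIs) and Nlrc5 (8 against 4 UMIs) were too sparse to call, with ratios of 1.65 and 1.98 and log2 intervals of [-0.17, 1.65] and [-0.91, 3.17]. The median of all genes in this comparison was -0.054. The libraries differ in their mix of germ groups, with 9.50% of KO and 19.1% of WT germ-like cells in the Sohlh1 group and 1129 KO against 367 WT cells in the meiotic entry-like group. With equal weight for each group the ratios were -0.31 for H2-D1, -0.12 for H2-K1 and -0.32 for B2m.

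Within germ groups H2-D1 was lower in KO throughout, by an amount that differed between groups. Its log2 ratio was -0.24 in premeiotic-like, -0.22 in meiotic entry-like and -0.19 in recombination-like cells. It was -0.47 [-0.50, -0.43] in the Gm8730 group and -0.71 [-0.80, -0.62] in the Nlrc3 group, whose median depths were 5045 UMIs in KO and 31599 in WT. In the Sohlh1 group it was -0.039 [-0.12, 0.039], with an interval that includes 0. H2-K1 in the 3 named stages lay between -0.043 and 0.12, but it was -0.27 [-0.31, -0.23] in the Gm8730 group and -0.59 [-0.69, -0.50] in the Nlrc3 group. B2m was at -0.35 [-0.62, -0.079] in premeiotic-like, -0.43 [-0.65, -0.21] in meiotic entry-like and -0.12 [-0.25, 0.0092] in recombination-like cells, and at -0.95 [-1.47, -0.46] in the Nlrc3 group. In that group H2-D1, H2-K1 and B2m were thus all at least 1.5-fold lower in KO, with intervals of H2-K1 and B2m that reach under that fold, where 3.12% of genes were so and the median of all genes was 0.17. The part of depth in this was not tested.

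In somatic classes the heavy chains were higher in KO in granulosa-like and theca-like cells, together with germ carry-over. H2-K1 in granulosa-like cells was 110 CPM in KO and 67.3 CPM in WT, a log2 ratio of 0.70 [0.58, 0.82], and H2-D1 there was at 0.51 [0.39, 0.63]. H2-K1 was the 1 member of 5 past 1.5-fold, where 5.08% of genes were. The light chain gene B2m was at -0.17 [-0.28, -0.068] and Tapbp at -0.031 [-0.21, 0.15]. In theca-like cells, the Tcf21-positive stromal cells, H2-D1 and H2-K1 were both at 0.37, with germ carry-over of 23.2% in KO and 15.6% in WT, and 0 of 4 members passed 1.5-fold, where 4.64% of genes did. In epithelia-like cells, with carry-over of 11.2% and 9.94%, H2-D1 was at -0.091 [-0.23, 0.055] and B2m at -0.19 [-0.34, -0.037], and 0 of 4 members passed, where 2.01% of genes did.

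The ratios in granulosa-like and theca-like cells turned with the doublets. Without Scrublet doublets, H2-D1 in granulosa-like cells was lower in KO, at -0.55, H2-K1 was at 0.074, and no member passed 1.5-fold. In theca-like cells H2-D1 and H2-K1 came to -0.080 and -0.027. In epithelia-like cells H2-D1 came to -0.42, with carry-over of 3.72% and 4.90%. With the same limits on cells in both libraries it was instead 0.90 in epithelia-like and 1.13 in theca-like cells, where H2-K1 was 1.08. Germ carry-over in the remaining granulosa-like cells was 3.78% in KO and 5.43% in WT. In the small classes, endothelia-like H2-D1 was 262 CPM in KO and 138 CPM in WT while B2m was 164 and 264 CPM, with carry-over of 22.9% against 2.09%. Immune-like H2-D1 and B2m differed by -0.19 [-0.53, 0.14] and -0.078 [-0.33, 0.17]. H2-K1 in immune-like cells was higher in KO, at 304 CPM [259, 354] against 196 CPM [156, 244] in WT, with carry-over of 16.1% against 1.76%. Markers of erythroid cells summed to 1582 CPM in KO and 30364 CPM in WT endothelia-like cells and to 69.4 and 31470 CPM in immune-like cells, and their part in these ratios was not tested.

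**Figure D3:**
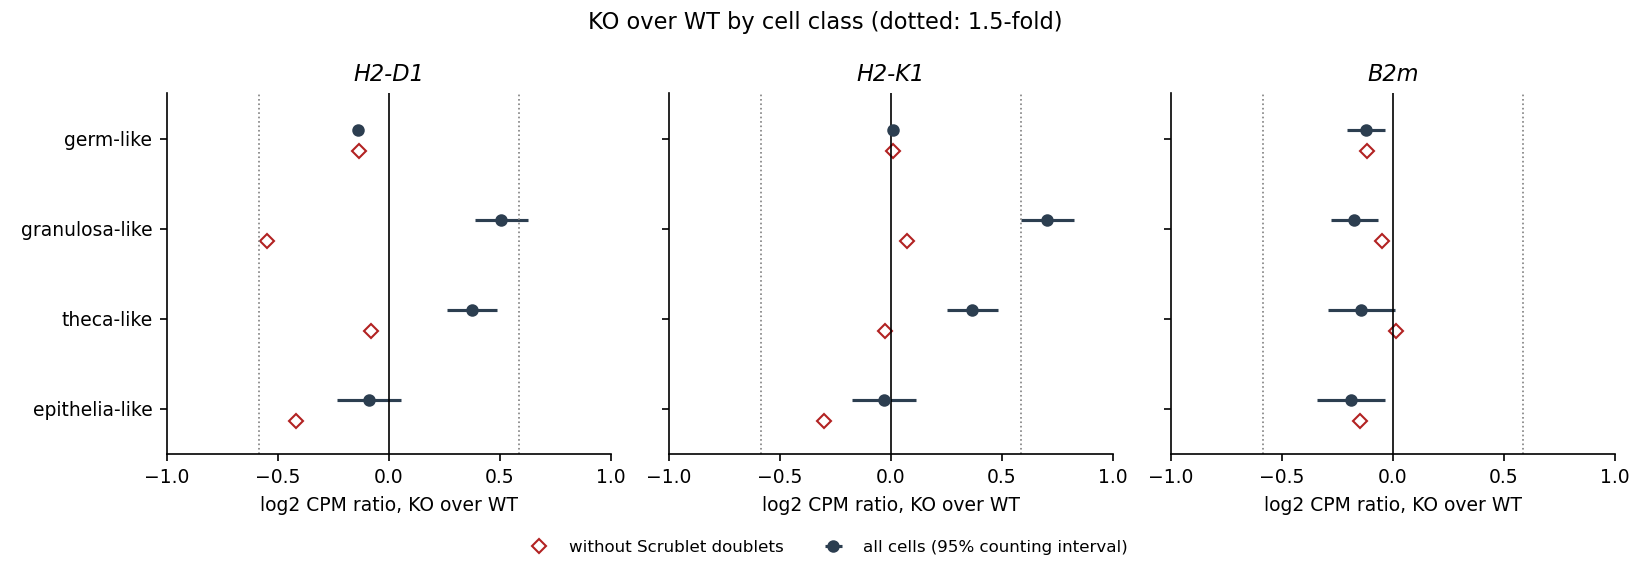
Log2 ratio of KO over WT for H2-D1, H2-K1 and B2m in the 4 main classes, with filled points for all cells (bars: 95% counting interval), open diamonds for cells left after removal of Scrublet doublets, and dotted lines at 1.5-fold. The germ-like points stay in place near 0, while H2-D1 in granulosa-like cells moves from 0.51 to -0.55.

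The wider pathway was read from lists of genes chosen for their roles, and genes named beside a count were picked after their values were seen unless they are the highest of their list. Against granulosa-like cells, the interferon list (receptors, kinases and induced genes) was the lowest in germ-like cells, with medians of -4.65 in KO and -3.10 in WT on the log2 scale beside 0.047 and 0.13 over all genes. Of its genes with enough UMIs, 10 of 14 in KO and 8 of 11 in WT were at least 1.5-fold lower. Among all genes 36.4% and 35.5% were so. The lower genes of the list included Isg15 and Bst2, while the kinase gene Jak1 was higher in both libraries. The minimum of UMIs is taken over the sum of both sides, so a gene scarce in germ-like cells can meet it through granulosa-like cells. The counts and medians of these lists depend in part on this minimum, and how far was not tested. The regulator list, which holds the factors of the X and Y boxes, had 10 of 12 genes lower in KO and 8 of 12 in WT, with medians of -1.07 and -0.91, including Irf1 at 3.22 CPM in KO germ-like cells against 16.2 CPM in granulosa-like cells. Its highest gene in germ-like cells was Rfxap, a subunit of the RFX complex, at 89.0 CPM in KO and 88.0 CPM in WT. The proteasome list had 5 of 8 genes lower in each library, which were the interferon-induced Psmb9 and Psmb10, the activator genes Psme1 and Psme2, and Psmb5, and 1 gene higher, Psme3, with medians of -1.61 and -1.01. Of the peptide loading list 3 of 7 genes were lower (Pdia3, Erap1 and Tapbpl) and 2 higher (the chaperone genes Calr and Hspa5), with medians of -0.13 and -0.25.

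Other class I genes and class II genes included members that were higher in germ-like cells, where 36.2% of all genes in KO and 38.7% in WT were so. Of the other class I genes, 4 of 12 in KO and 5 of 11 in WT were higher and 6 and 4 were lower, with medians of -0.50 and -0.21. Among the higher was H2-Q10, at 18.0 and 16.4 CPM in germ-like cells against 4.46 and 7.73 CPM in granulosa-like cells. Of 4 class II genes 3 in KO and 2 in WT were higher and 0 were lower, with medians of 0.92 and 0.98. H2-Ab1, which encodes a class II beta chain and is usually restricted to antigen-presenting cells, stood at 96.1 CPM in KO and 91.0 CPM in WT germ-like cells. It was higher there than in granulosa-like cells by 2.47 [2.31, 2.63] and 3.22 [2.95, 3.50] on the log2 scale. Across germ groups H2-Ab1 rose from 55.0 and 64.2 CPM in premeiotic-like to 122 and 135 CPM in meiotic entry-like cells, and stood at 28.0 and 28.1 CPM in the Sohlh1 group. In recombination-like cells against the Sohlh1 group, 4 other class I genes (H2-Q1, H2-Q4, H2-Q10 and H2-T23) were higher by 1.5-fold, of 6 in KO and 5 in WT, where 14.0% and 12.4% of all genes were so, with medians of 1.13 and 1.34 beside -0.17 and -0.23 over all genes. The iron regulator gene Hfe of that list was lower, at -2.37 and -2.47, where 25.6% and 30.5% of all genes were lower. Of the 3 class II genes with enough UMIs only H2-Ab1 was higher there, while H2-DMa in both libraries and H2-Eb1 in KO were lower, with medians of -0.71 and -0.33.

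Between genotypes, few genes of these lists passed 1.5-fold in germ-like cells, where 5.29% of all genes did. Psmb9, an immunoproteasome subunit, was at 1.00 CPM in KO and 1.80 CPM in WT, with a log2 ratio of -0.85 [-1.18, -0.52]. Rfx5, a further RFX subunit, was at 4.75 and 7.67 CPM, with -0.69 [-0.84, -0.54]. H2-M5, a non-classical class I gene, was at -0.72 [-1.32, -0.14], and Tapbpl, which encodes a tapasin-like editor of peptides, was at 0.79 [0.23, 1.37]. Each of these was the 1 gene past 1.5-fold of its list, of 8 proteasome genes, 12 regulators, 10 other class I genes and 7 peptide loading genes, whose medians were 0.10, -0.20, 0.040 and -0.034. Of 11 interferon genes and 4 class II genes 0 passed, with medians of 0.033 and -0.074. The chaperone gene Hspa5, the highest of the peptide loading list, was at 1543 and 1338 CPM, and the constitutive proteasome gene Psmb6 at 497 and 421 CPM. In granulosa-like cells, 3 of 14 interferon genes (Irf7, Isg15 and Ifit1) were at least 1.5-fold higher in KO and 0 lower, where 5.08% of all genes passed in either direction, with a list median of 0.17 beside -0.019 over all genes. Isg15, which encodes a ubiquitin-like protein, stood there at 34.1 CPM in KO and 19.1 CPM in WT, beside 0.697 and 0.694 CPM in germ-like cells.

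The neighbours of the heavy chain genes were followed because the MHC is polymorphic between strains and the labels give no inbred strain. The stretch from 500 kb before H2-K1 to 500 kb after H2-D1 (chromosome 17, 33496017 to 35767499 in GRCm38) holds 145 genes of the list, of which 143 are not H2-K1 or H2-D1, and 92 of these had at least 100 UMIs in germ-like cells. Their median log2 ratio of KO over WT was -0.057, beside -0.054 over all genes. Past 1.5-fold were Apom, an apolipoprotein gene, at 0.66 [0.20, 1.12], Psmb9 at -0.85 and Gm20522, an antisense RNA gene whose counts are uncertain if strand was not used, at -0.66 [-1.03, -0.29], all at or below 1.80 CPM. The rule for this stretch named the 3 genes furthest from 0 on each side, which added Ring1, a Polycomb gene, at -0.53 [-0.65, -0.42] on the lower side, and on the higher side Dpcr1 at 0.55 [0.081, 1.03] and H2-Q7, a class Ib gene, at 0.41 [0.10, 0.73]. The counts name genes and not alleles, and a median can hide changes that go opposite ways. A difference of strain in this stretch was therefore not tested.

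**Figure D4:**
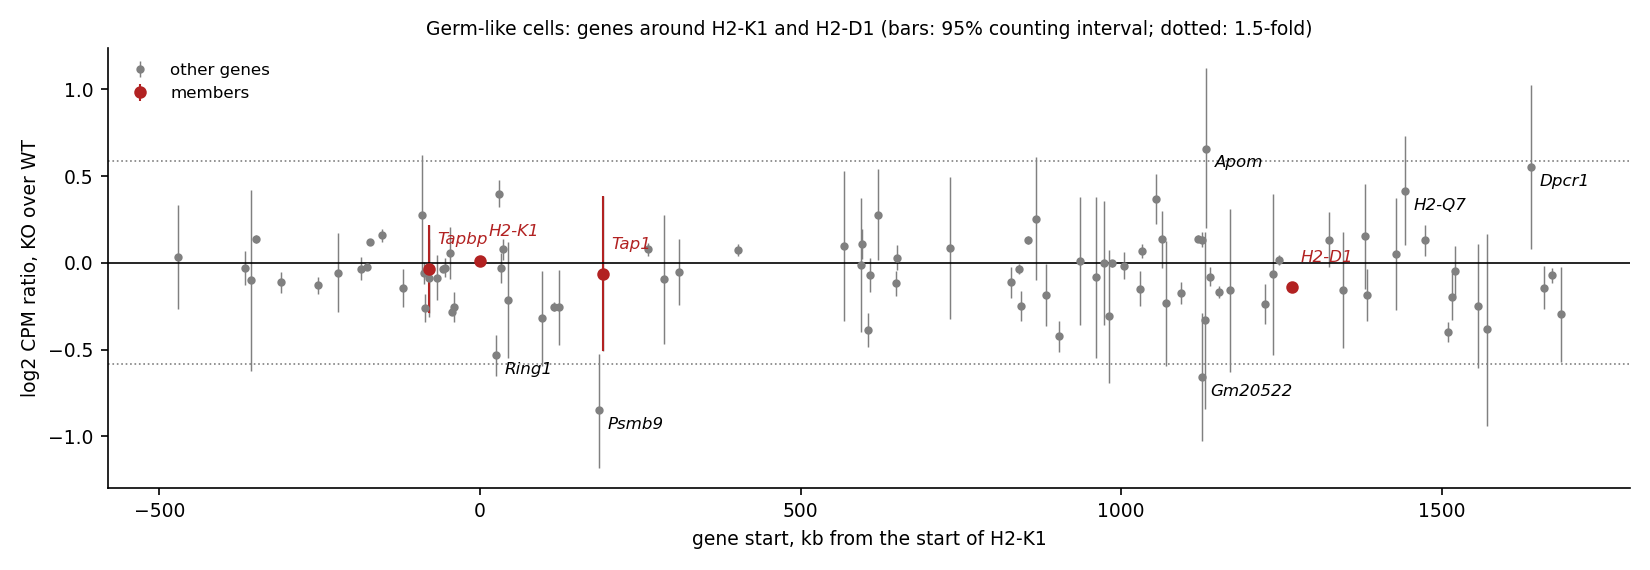
Log2 ratio of KO over WT in germ-like cells for genes between 500 kb before H2-K1 and 500 kb after H2-D1, plotted against distance from the start of H2-K1 in kb, with bars for 95% counting intervals and dotted lines at 1.5-fold. The members Tapbp, H2-K1, Tap1 and H2-D1 lie between -0.14 and 0.011, and 3 other genes lie past the dotted lines.

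Heavy chain reads could in part come from other genes with similar transcript ends. Over the last 500 transcript bases, where 3′ reads fall, H2-K1 was 89.2% identical to H2-K2 over 399 bases, 84.3% to H2-Q7 over 414 bases and 81.6% to H2-Q10 over 423 bases, and H2-K2 is not among the measured genes. For H2-D1 the strongest match by length and identity was Gm10499 at 75.8% over 302 bases. Next came Pbld1 at 84.2% over 209 bases and Aldh1a3 at 84.1% over 207 bases, neither of them a class I gene. A further 29 genes matched H2-D1 at 90% or more over at least 100 bases, and whether they are class I genes was not examined. How reads with several matches were counted is not given in the sources used here, so the share of each class I gene is uncertain. B2m, Tap1 and Nlrc5 had no such match.

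The gene most like H2-D1 in its profile was H2-K1. Across 30 points (8 somatic classes and 7 germ groups in 2 libraries, log2 of CPM plus 1, 15408 genes), Pearson's r with H2-D1 was 0.954 for H2-K1, 0.947 for 5730508B09Rik, 0.924 for Smap2, 0.919 for Acer3 and 0.916 for Msh5, a meiotic recombination gene. For B2m it was -0.402. The genes most like B2m were Arpc4 (0.965) and Arpc5 (0.951), subunits of the Arp2/3 actin complex, then Rap1b, Cdc42se1 and Sat1 at 0.942 to 0.949, and Tapbp stood at 0.784. The points share libraries and carry-over, and germ groups and somatic classes form 2 sets of points, so these values are descriptions.

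Within recombination-like cells, H2-D1 varied from cell to cell with H2-K1 and with meiotic genes, and B2m hardly followed. Over 4101 KO and 2793 WT cells, r of log-scaled counts was 0.504 and 0.528 for H2-D1 with H2-K1, and 0.0993 and 0.114 for H2-D1 with B2m, which is sparse. The highest r with H2-D1 in both libraries was that of Tex101, a germ cell surface glycoprotein gene named after its value was seen, at 0.561 and 0.661. The meiotic chromosome genes Sycp3 and Syce2 stood at 0.425 and 0.434 in KO, and at 0.547 and 0.538 in WT, above H2-K1 in WT. H2-Ab1 stood at 0.295 and 0.431. Recombination-like cells join clusters that differ in H2-D1, and the part of stage in these values was not tested. Cells of 1 library are not replicates, and depth is shared by all genes of a cell.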

How the data were processed

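Both matrices deposited by the authors hold raw UMI counts, 1 whole number for each gene in each barcode. Their headers name Cell Ranger 3.0.2, and the submitters' processing notes name Seurat 3.2.3 and the build mm10. The gene annotation and the treatment of reads with several matches are not given in the sources used here.

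Cells were kept by the study's limits: 1500 to 6500 genes and 5500 to 40000 UMIs in WT, 1200 to 5500 genes and 3000 to 30000 UMIs in KO, and under 10% mitochondrial UMIs in both. The main values include all kept cells, and the removal of Scrublet doublets (expected rate 8%) was an alternative. Counts were scaled to 10000 per cell and log-transformed, and Leiden clusters were computed with scanpy 1.11.5 (2000 variable genes, 30 components, 20 neighbours, resolution 0.5, seed 1). Germ-like cells were clustered again without MHC genes. To be named, a cluster needed 3 or more listed markers, each in 10% or more of its cells. Each marker had to lie above its level in other classes by 2-fold (1.25-fold among germ stages). The leading genes could not include Pax8 among all cells, or a somatic class marker among germ stages. Leading genes from the list of another germ stage were not checked. Among germ stages, the markers also had to be on average above the other germ cells. The form of this rule was set after the clusters were seen, and names rebuilt in this way can differ from those of the study.

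UMIs were summed per class and library and given as CPM. With 1 library per genotype there was no test, and a call needed a ratio of 1.5-fold and 100 or more UMIs in the sum of both sides. Other choices tried were common limits on cells, thinning to 3000 UMIs, other scalings, other minimums and folds, and other germ clusterings. The calling of genes was checked on simulated data. Genes named from the lists are the highest of each list, those past 1.5-fold and the 3 largest neighbours each way, and, for likeness, the 5 of highest r. The members and lists were chosen with earlier results of these data known. Promoters are from RefSeq, which had entries for 5 of the 7 genes, and aligned ends were compared with blastn 2.17.0.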

Additional observations from a re-analysis of the deposited data

Results flagged for a closer look

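H2-D1 drew attention because its difference between genotypes pointed opposite ways in germ and somatic cells. On the log2 scale KO over WT was -0.14 in germ-like cells, 0.51 in granulosa-like cells and 0.37 in theca-like cells. With 1 library per genotype, the difference between these ratios was not tested. Germ carry-over was higher in KO than in WT, at 16.4% against 9.80% in granulosa-like and 23.2% against 15.6% in theca-like cells. Without Scrublet doublets the ratio was -0.55 in granulosa-like and -0.080 in theca-like cells, so the opposite directions were not seen in the cells that remained.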

How the results depend on the processing

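Each library is the only one of its genotype, so none was left out, and intervals cover counting error only. No paired analysis was possible because each genotype has 1 library and no result comes from a test.

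Of the values tied to the main comparisons, 54 under other settings stayed within their counting interval or within 1.5 times a count, 31 moved outside it and 1 reversed. Among single members the figures were 179, 57 and 2. H2-D1 in germ-like cells (KO over WT, log2, reported as -0.14) stayed lower in KO in every setting run. It was -0.17 under common limits on cells, -0.31 without cells holding 2 or more UMIs of another class, -0.16 scaled without mitochondrial, ribosomal and haemoglobin genes, -0.083 centred on the median of all genes, -0.31 with equal weight for each germ group, and, in settings added after seeing the data, -0.23 in the named germ groups and -0.22 in meiotic entry-like and recombination-like cells. B2m there was -0.32 with equal weight for each group. With a minimum of 30 UMIs, 1 member passed 1.5-fold in germ-like cells, which was Tap2.

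In granulosa-like cells the ratio of H2-D1 was 1.02 under common limits, 0.35 as a mean over cells, 0.18 after thinning, and it reversed to -0.55 without Scrublet doublets. The ratios of H2-D1 and H2-K1 in theca-like cells likewise reversed to -0.080 and -0.027. The count of members past the fold in granulosa-like cells was 2 under common limits and with a minimum of 30 UMIs, and 0 without Scrublet doublets, after thinning and at a fold of 2. Under common limits it was 2 in each of the theca-like and epithelia-like classes. Germ-like over granulosa-like, H2-D1 was 4.18 in KO and 3.76 in WT without Scrublet doublets and 3.06 and 3.38 after thinning, and B2m was -2.60 in KO without doublets and -2.58 in KO and -2.73 in WT after thinning. Recombination-like cells over the Sohlh1 group, H2-D1 was 1.67 in KO with the other scaling, 1.66 in KO and 1.79 in WT with MHC genes kept in the clustering, and 1.95 in WT without cells holding markers of another class and 1.96 after thinning. The cause of these shifts was not tested. Removing cells with 2 or more UMIs of another class's markers was not run in somatic classes, since it left 0 granulosa-like and 0 epithelia-like cells and 32 KO and 1 WT theca-like cells, under the minimum of 50.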
